A study of Mus musculus with 9 samples.

Results

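The 39 genes described here encode histones, the proteins that DNA is wound around, and were taken from 30050 genes measured on 9 arrays. They are the genes whose probes carried a single symbol of the Hist1h to Hist4h families (27 replication-dependent genes) or of the H1f, H2af and H3f families (12 variants), leaving out 5 symbols marked as pseudogenes. The replication-dependent set held 5 H1, 9 H2A, 8 H2B, 3 H3 and 2 H4 genes, and the variants held 3 H1, 8 H2A and 1 H3 gene. All RNA came from HL-1, a line of immortalised mouse atrial heart muscle cells grown with serum. Con cells were given PBS, DOX cells doxorubicin at 0.3 µM, and DOX_IFNg cells that same doxorubicin dose together with interferon gamma at 20 ng/ml, with 3 arrays in each of the 3 groups. Both treated groups therefore carry doxorubicin, a drug that traps topoisomerase II on DNA, and cells given interferon gamma without it were not analysed here. All groups are cultures of 1 line, and the sources used here do not give how long the cells were treated. The labels do not say if arrays of a group stand for separate cultures. The p-values therefore reflect array-to-array spread alone, which may be technical.

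A replicating cell needs new histones for each new copy of its DNA. The replication-dependent genes lie in clusters, are transcribed in S phase, and yield messenger RNAs that end in a stem-loop instead of a poly(A) tail; the stem-loop is bound by Slbp, and these RNAs are lost quickly when DNA synthesis stops. Variant genes mostly yield polyadenylated RNA through the whole cell cycle. Their proteins can replace the canonical ones, for some variants at particular sites, such as H2A.Z at promoters. H2A, H2B, H3 and H4 form the core of the nucleosome, and H1 binds the linker DNA between cores.

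RefSeq placed 22 of the replication-dependent genes on chromosome 13 and 5 on chromosome 3, while the 12 variants were spread over 8 chromosomes. Its promoter table (build GRCm38.p6, 250 bases before to 50 after a gene's start) held 34 of the 39 genes, 24 replication-dependent and 10 variant. Printed here are the 250 bases before the start of 4 H2B genes that fell with doxorubicin and hold an octamer, of Hist1h2af, an H2A gene that fell and holds none, and of H2afz and H2afv, the genes of both H2A.Z proteins. Capitals mark matches on either strand to the CCAAT box, to the letters TATAAA of a TATA box, and to the octamer ATTTGCAT.
Hist1h2ba, chr13:23934157-23934406, minus strand: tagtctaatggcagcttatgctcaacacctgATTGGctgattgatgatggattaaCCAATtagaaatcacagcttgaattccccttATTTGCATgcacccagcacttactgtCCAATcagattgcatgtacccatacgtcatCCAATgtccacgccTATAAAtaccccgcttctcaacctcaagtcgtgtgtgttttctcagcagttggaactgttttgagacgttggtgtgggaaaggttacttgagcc
Hist2h2bb, chr3:96269450-96269699, plus strand: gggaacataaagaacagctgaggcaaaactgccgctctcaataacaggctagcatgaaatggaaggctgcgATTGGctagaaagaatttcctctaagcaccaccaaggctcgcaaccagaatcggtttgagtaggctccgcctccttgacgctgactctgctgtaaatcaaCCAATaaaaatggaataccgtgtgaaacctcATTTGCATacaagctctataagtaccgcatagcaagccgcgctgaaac
Hist1h2bm, chr13:21721794-21722043, plus strand: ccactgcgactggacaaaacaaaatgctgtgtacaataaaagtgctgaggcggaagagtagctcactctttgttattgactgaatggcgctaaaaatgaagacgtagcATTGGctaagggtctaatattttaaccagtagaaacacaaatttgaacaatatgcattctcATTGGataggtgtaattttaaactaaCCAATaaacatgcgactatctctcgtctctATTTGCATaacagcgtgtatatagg
Hist1h2bk, chr13:22035571-22035820, plus strand: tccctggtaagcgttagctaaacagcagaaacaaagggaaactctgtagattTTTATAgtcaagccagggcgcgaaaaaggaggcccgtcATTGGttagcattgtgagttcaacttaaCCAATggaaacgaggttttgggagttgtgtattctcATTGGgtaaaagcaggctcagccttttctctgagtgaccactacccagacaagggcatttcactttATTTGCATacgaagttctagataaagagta
Hist1h2af, chr13:23533625-23533874, plus strand: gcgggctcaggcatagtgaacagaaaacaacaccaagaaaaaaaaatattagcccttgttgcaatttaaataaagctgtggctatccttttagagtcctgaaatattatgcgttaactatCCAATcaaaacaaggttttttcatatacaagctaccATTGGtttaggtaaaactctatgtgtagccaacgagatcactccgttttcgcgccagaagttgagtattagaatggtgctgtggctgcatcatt
H2afz, chr3:137864237-137864486, plus strand: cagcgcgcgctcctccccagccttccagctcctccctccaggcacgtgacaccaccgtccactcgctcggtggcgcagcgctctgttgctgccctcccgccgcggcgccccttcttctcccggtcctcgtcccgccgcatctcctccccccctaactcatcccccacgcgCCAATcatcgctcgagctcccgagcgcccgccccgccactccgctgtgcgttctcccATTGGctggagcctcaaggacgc
H2afv, chr11:6444444-6444693, minus strand: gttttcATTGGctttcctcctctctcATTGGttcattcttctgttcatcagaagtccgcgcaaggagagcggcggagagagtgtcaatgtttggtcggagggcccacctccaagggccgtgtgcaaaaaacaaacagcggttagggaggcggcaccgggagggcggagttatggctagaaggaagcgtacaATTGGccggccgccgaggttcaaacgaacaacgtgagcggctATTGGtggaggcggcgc
The 4 H2B windows were picked for the octamer; Hist1h2bh, an H2B gene that also fell, has no match to it. Over the windows of 300 bases, CCAAT was found in 23 of 24 replication-dependent promoters and 5 of 10 variant promoters, against 37.9% of the 27025 promoters in the table. TATAAA was found in 13 of 24 and 0 of 10, against 14.2%. The octamer was found in 7 of 24 and 0 of 10, against 1.75%. The 7 were 5 of 7 H2B genes (Hist1h2ba, Hist1h2bb, Hist1h2bk, Hist1h2bm and Hist2h2bb) and 2 H2A genes, Hist1h2aa and Hist1h2ah, each of which starts head to head with an H2B gene of the set and shares its window with it. All 7 were among the genes that fell in DOX. There 7 of 14 such genes with a window held it, against 0 of 10 that did not pass the test. Histone class differs between these groups too, and the octamer stood in 0 of 5 H1 windows. A link between the octamer and the fall was not tested. AAACACA, a motif described in H1 promoters, stood in 4 of 5 H1 windows and in 7.14% of all promoters. Over the sets it stood in 7 of 24 replication-dependent windows, H2A and H2B windows among them, and in 0 of 10 variant windows. GGTCCG stood in 2 of 24 replication-dependent and 4 of 10 variant windows and 8.39% of all, and TTTGAA in 11 of 24, 1 of 10 and 18.1%. In the 34 windows 0 matches of different motifs overlapped each other. These matches are letters in a window, and no binding was measured.

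In control cells the histone probes covered most of the scale of the array. Values are the deposited log2 expression values, and a gene is called dim when its mean over the 9 arrays lies at or under 4.71, the 95th percentile of 1408 smell, taste and pheromone receptor genes. By that limit 13 of 27 replication-dependent genes and 8 of 12 variants were above it. Probes differ in brightness, so a higher value of one gene than of another does not show more RNA, and the mean value served only to choose genes to name. The H2A genes Hist1h2af and Hist1h2aj lay near the top of the scale in Con, at 19.55 ± 0.15 (SD, n = 3) and 19.87 ± 0.05 (SD, n = 3), where a fall can be understated. Most histone genes have near-identical copies, so probes can catch RNA of more than 1 copy, and the identity of a single Hist gene is uncertain throughout.

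With doxorubicin, RNA of the replication-dependent genes was lower. By limma, with Benjamini-Hochberg adjustment over all 30050 genes and a call at an adjusted p under 0.05, 16 of 27 fell in DOX against Con, 0 rose and 11 did not pass. Of all genes tested, 7.53% were called lower and 8.06% higher in this comparison. The median log2 difference over the 27 genes was -0.60, with a range from -2.57 to 0.11, against a median of -0.01 over all genes. The difference was negative for 26 of 27, and for 20 of 27 every DOX array lay below every Con array, which held for 17.2% of all genes. The median level over the 27 genes was 4.78, 4.95 and 5.34 on the Con arrays and 4.39, 4.43 and 4.35 on the DOX arrays, so the groups did not overlap. In RNA from whole cultures, fewer cells in S phase and less histone RNA per cell cannot be told apart. Among genes above the dim limit 9 of 13 fell, with a median of -0.89, and among those at or under it 7 of 14, with a median of -0.51. Of all genes, 1891 of 12028 above the limit and 373 of 18022 at or under it were called lower.

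**Figure D1:**
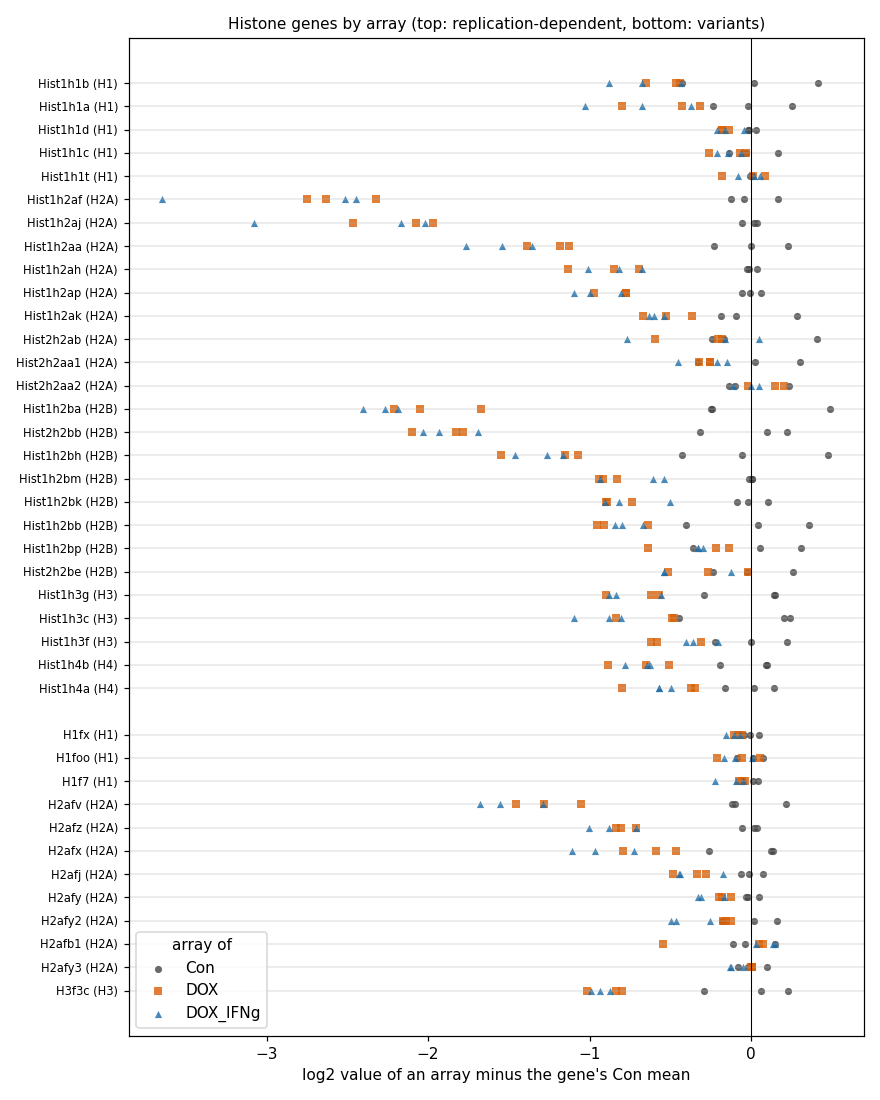
Log2 value of each array minus the gene's mean over the 3 Con arrays, for the 27 replication-dependent genes (top) and 12 variants (bottom), with the histone class in brackets. Circles are Con, squares DOX and triangles DOX_IFNg arrays; both treated groups lie left of 0 for most H2A and H2B genes, down to differences of -2.57 in the mean of DOX, and near 0 for most H1 genes.

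Among the replication-dependent genes with a single symbol, H2A genes, whose product pairs with H2B in the nucleosome, held the largest measured falls. Of them 6 of 9 were called lower, with a class median of -0.84, beside -0.87 for H2B genes. A probe group that lists several H2B symbols fell further, by 3.65. Hist1h2af lay at 19.43, 19.51 and 19.72 on the Con arrays, at 16.92, 17.23 and 16.80 on the DOX arrays and at 15.90, 17.03 and 17.11 on the DOX_IFNg arrays. All treated arrays lay below all controls, and with DOX it fell by 2.57 on the log2 scale (SE 0.29, 5.93-fold, adjusted p = 0.00053 by limma). Hist1h2aj lay at 19.91, 19.88 and 19.82 in Con, at 17.80, 17.90 and 17.41 in DOX and at 16.79, 17.85 and 17.70 in DOX_IFNg. Again all treated arrays lay below the controls, and in DOX it fell by 2.17 (SE 0.25, 4.50-fold, adjusted p = 0.00063 by limma). Since both genes lay near the top of the scale in Con, these folds may be understated and their order is not settled. RefSeq lists Hist1h2aj as a pseudogene. In DOX_IFNg replicate 1 both genes were lower than on the other 2 arrays of that group.

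Hist1h2aa encodes the H2A known from testis. It lay at 7.90, 8.13 and 8.36 in Con, at 6.74, 6.95 and 7.0 in DOX and at 6.36, 6.77 and 6.58 in DOX_IFNg. Treated arrays were all below the controls, and it fell by 1.23 in DOX (SE 0.14, 2.35-fold, adjusted p = 0.00053 by limma). Hist1h2ah lay at 5.49, 5.43 and 5.44 in Con, at 4.32, 4.61 and 4.76 in DOX and at 4.45, 4.64 and 4.78 in DOX_IFNg, and fell by 0.89 in DOX (SE 0.12, adjusted p = 0.0012 by limma). Hist1h2ap fell by 0.84 (SE 0.09, adjusted p = 0.00035 by limma), from 4.51 to 4.63 in Con to between 3.59 and 3.79 in DOX, so it was dim in every group. Hist1h2ak fell by 0.52 (adjusted p = 0.023), a call that was lost without DOX replicate 1 (adjusted p = 0.074) or DOX replicate 3 (adjusted p = 0.079). The 3 H2A genes of the cluster on chromosome 3 did not pass the test. Hist2h2ab differed by -0.33, Hist2h2aa1 by -0.28 and Hist2h2aa2 by 0.11, the only positive value among the replication-dependent genes. Without Con replicate 1, Hist2h2aa1 was called, at -0.44 (adjusted p = 0.040). Hist2h2aa1 and Hist2h2aa2 were dim. Probe groups that list both symbols were brighter in Con, at 7.90 and 7.43, the latter listing Hist1h2al too. They differed by -0.38 and -0.39 in DOX without passing (adjusted p = 0.076 and 0.052 by limma over all annotated probe groups). In DOX_IFNg minus Con both were called lower, at -0.59 and -0.56 (adjusted p = 0.011 and 0.0099 by limma in that fit).

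H2B genes fell in 6 of 8 cases, with a class median of -0.87. Hist1h2ba encodes the H2B known from testis and starts 281 bases from Hist1h2aa, in the opposite direction. It lay at 7.79, 7.78 and 8.52 in Con, at 5.98, 6.36 and 5.82 in DOX and at 5.63, 5.85 and 5.77 in DOX_IFNg. No treated array came within 1 log2 unit of a control, and with DOX it fell by 1.98 (SE 0.21, 3.94-fold, adjusted p = 0.00038 by limma). Hist2h2bb, on chromosome 3, lay at 9.70, 10.11 and 10.23 in Con, at 8.19, 8.23 and 7.92 in DOX and at 8.32, 8.08 and 7.98 in DOX_IFNg. It fell by 1.90 (SE 0.15, 3.74-fold, adjusted p = 9.1e-05 by limma), the lowest adjusted p among the 39 genes in this comparison.

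Hist1h2bh lay at 4.78, 5.15 and 5.68 in Con, at 3.65, 4.05 and 4.13 in DOX and at 3.74, 3.94 and 4.04 in DOX_IFNg. It spread widely in Con and did not overlap with the treated arrays, and it fell by 1.26 (SE 0.22, adjusted p = 0.0050 by limma). Hist1h2bm lay at 5.51, 5.51 and 5.49 in Con, at 4.59, 4.56 and 4.67 in DOX and at 4.57, 4.89 and 4.96 in DOX_IFNg, and fell by 0.90 in DOX (SE 0.10, adjusted p = 0.00040 by limma). Hist1h2bk starts 178 bases from Hist1h2ah in the opposite direction, and the values of this pair lay close together, with -0.84 for Hist1h2bk (adjusted p = 0.00098 by limma) and -0.89 for Hist1h2ah. Hist1h2bb fell by 0.84 (adjusted p = 0.012), a call lost without DOX replicate 1 (adjusted p = 0.053). Hist1h2bp differed by -0.33 (adjusted p = 0.28) and Hist2h2be, an H2B known from olfactory neurons, by -0.27 (adjusted p = 0.39), and neither passed the test.

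**Figure D2:**
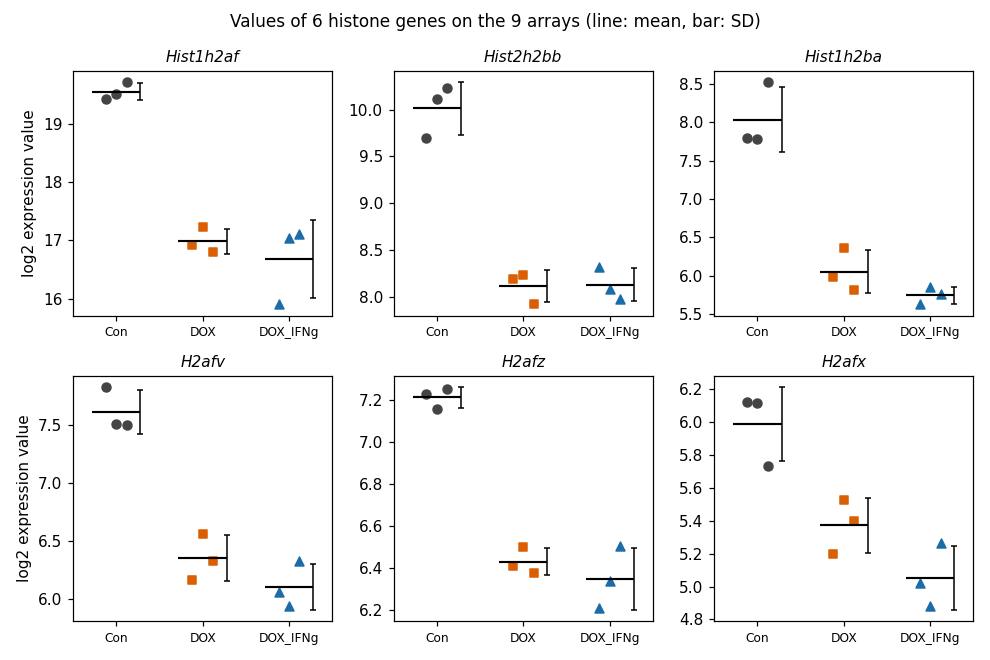
Log2 expression values of 6 histone genes on the 9 arrays, 1 point an array; the line is the group mean and the bar 1 SD (n = 3), and each panel has its own scale. In all 6 panels the Con arrays lie above both treated groups, for example 9.70 to 10.23 against 7.92 to 8.32 for Hist2h2bb.

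Of the H3 genes 2 of 3 fell, with a class median of -0.60, and of the H4 genes 2 of 2, with a median of -0.59. Hist1h3g lay at 4.33, 4.76 and 4.77 in Con and at 3.72, 4.0 and 4.05 in DOX. It fell by 0.70 (SE 0.15, adjusted p = 0.013 by limma), a call that was lost without Con replicate 2 (adjusted p = 0.0505) or without DOX replicate 1 (adjusted p = 0.0506). Hist1h3f fell by 0.51 (SE 0.13, adjusted p = 0.027), and this call was lost when any 1 of Con replicate 1 or 2 and DOX replicate 2 or 3 was left out (adjusted p from 0.065 to 0.095). Hist1h3c, whose probes gave the highest mean value of the class, lay at 5.35, 6.0 and 6.03 in Con and at 5.30, 4.96 and 5.32 in DOX, and its difference of -0.60 did not pass (adjusted p = 0.068). Without Con replicate 1 it was -0.82 (adjusted p = 0.0055). Probe groups that list several H3 symbols, variants included, were called lower in DOX in 6 of 8 cases. Their differences ran from -2.09 to 0.13, with a median of -0.66. Both H4 genes were dim: Hist1h4b fell by 0.68 (SE 0.11, adjusted p = 0.0039) and Hist1h4a by 0.51 (SE 0.13, adjusted p = 0.028). A further probe group of Hist1h4b, which does not stand for the gene here, differed by -0.34 (adjusted p = 0.42), and Hist1h4a was not called without Con replicate 2 (adjusted p = 0.082) or Con replicate 3 (adjusted p = 0.083).

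For linker histones limma called 0 of 5 in DOX against Con, where 7.53% of all genes were called lower and 8.06% higher. For 3 of 5 every DOX array lay below every Con array, which held for 17.2% of all genes. An unadjusted p under 0.05 was reached by 3 of 5, and by 27.6% of all genes. Of the 5, only Hist1h1c was above the dim limit, and changes of dim probes can be understated. That limit is set against the mean over all 9 arrays. In Con alone, Hist1h1a and Hist1h1b had means of 5.01 and 5.09, above 4.71, beside 5.09 for Hist1h1c. Hist1h1c, with the highest mean value of the class, lay at 5.26, 4.95 and 5.06 in Con, at 4.83, 5.06 and 5.02 in DOX and at 4.94, 4.88 and 5.03 in DOX_IFNg, so the groups overlapped, with a difference of -0.12 (95% interval -0.33 to 0.09). Hist1h1b lay at 5.10, 4.66 and 5.5 in Con and at 4.65, 4.43 and 4.62 in DOX, a difference of -0.52 (adjusted p = 0.13). It passed without Con replicate 2, at -0.73 (adjusted p = 0.024). Hist1h1a differed by -0.51 (adjusted p = 0.12), Hist1h1d by -0.17 and the testis gene Hist1h1t by -0.03. Whether the classes differ from each other in their response was not tested.

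**Figure D3:**
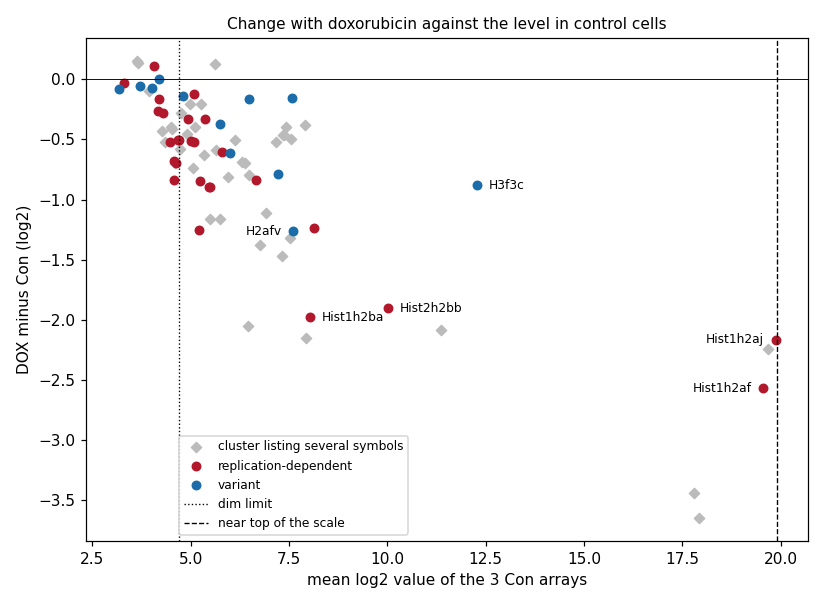
Difference between DOX and Con (log2) against the mean log2 value of the 3 Con arrays, for replication-dependent genes (red), variants (blue) and probe groups that list several histone symbols (grey diamonds). The dotted line is the dim limit of 4.71 and the dashed line lies near the top of the scale; most genes near the dim limit differ by less than 1, Hist1h2af reaches -2.57 and the lowest probe group -3.65.

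Among the variants 5 of 12 fell in DOX and 0 rose, where 7.53% of all genes were called lower and 8.06% higher. The median over the 12 was -0.16. All 5 were among the 8 variants above the dim limit (median -0.49), where 1891 of 12028 genes were called lower. Of the 4 variants at or under it, 0 were called. The count over the 12 was 3 without Con replicate 1 or 2 or DOX replicate 3. H2afv and H2afz encode the 2 H2A.Z proteins, which mark promoters and help define active and silent chromatin. H2afv lay at 7.83, 7.51 and 7.5 in Con, at 6.16, 6.56 and 6.33 in DOX and at 6.06, 5.93 and 6.32 in DOX_IFNg. All treated arrays were below the controls, and with DOX it fell by 1.26 (SE 0.14, 2.40-fold, adjusted p = 0.00049 by limma). H2afz lay at 7.23, 7.16 and 7.25 in Con, at 6.41, 6.50 and 6.38 in DOX and at 6.21, 6.34 and 6.50 in DOX_IFNg, and fell by 0.78 in DOX (SE 0.08, 1.72-fold, adjusted p = 0.00027 by limma). H3f3c, the only H3 variant in the set, lay at 12.50, 12.33 and 11.98 in Con, at 11.44, 11.47 and 11.25 in DOX and at 11.34, 11.28 and 11.40 in DOX_IFNg. It fell by 0.88 (SE 0.12, 1.84-fold, adjusted p = 0.0016 by limma), with no overlap between control and treated arrays. Further probe groups list H3f3c together with H3f3a and H3f3b: 1 fell by 0.52 (adjusted p = 0.00068 by limma over all annotated probe groups) and 1 differed by 0.13 without passing (adjusted p = 0.16).

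H2afx encodes H2A.X, which is phosphorylated around double-strand breaks. Its RNA lay at 6.12, 6.11 and 5.73 in Con, at 5.20, 5.53 and 5.40 in DOX and at 5.02, 4.88 and 5.26 in DOX_IFNg. All treated arrays lay below the controls, and it fell by 0.62 in DOX (SE 0.14, 1.53-fold, adjusted p = 0.019 by limma), but it was not called when 1 of the arrays Con 1, Con 2, DOX 1 and DOX 3 was left out (adjusted p from 0.052 to 0.075). H2afj, the gene of H2A.J, lay at 5.74, 5.69 and 5.83 in Con and at 5.47, 5.41 and 5.27 in DOX, and fell by 0.37 (SE 0.09, adjusted p = 0.025 by limma). That call was lost when any 1 Con array or DOX replicate 2 or 3 was left out (adjusted p from 0.0501 to 0.083). MacroH2A histones carry a large extra domain and are known from silent chromatin; H2afy differed by -0.17 (adjusted p = 0.093) and H2afy2 by -0.15 (adjusted p = 0.37), so neither passed the test in DOX. H2afb1, which RefSeq names H2al2a, differed by -0.14 (adjusted p = 0.65). The linker variants H1f7, H1foo and H1fx and the H2A gene H2afy3, listed by RefSeq as a transcribed pseudogene, were dim in all groups, with differences between -0.08 and 0.01.

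No histone gene passed the test between cells given interferon gamma on top of doxorubicin and cells given doxorubicin alone. In DOX_IFNg minus DOX limma called 0 of 27 replication-dependent genes and 0 of 12 variants, and 0% of all 30050 genes. At an unadjusted p under 0.05 there was 1 replication-dependent gene and 1 variant, and 5% of all genes. The median difference was -0.04 for the replication-dependent genes and -0.07 for the variants. The 5 largest differences were those of Hist1h3c (-0.33), Hist1h2aa (-0.32, unadjusted p = 0.049), H2afx (-0.32, unadjusted p = 0.053), Hist1h2ba (-0.31) and Hist1h2af (-0.30), each with an adjusted p of 0.98. The 95% interval of Hist1h2ba ran from -0.79 to 0.17 and that of H2afx from -0.64 to 0.005. H2afy2 was the variant at an unadjusted p under 0.05 (-0.25, adjusted p = 0.98 by limma), and its DOX_IFNg arrays, at 7.11, 7.08 and 7.32, all lay below its DOX arrays, at 7.42, 7.46 and 7.40. Non-overlap in that direction held for 2 of 12 variants, 0 of 27 replication-dependent genes and 6.69% of all genes. The median half-width of the 95% interval was 0.34 over the replication-dependent genes and 0.20 over the variants.

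Against Con, DOX_IFNg gave 17 of 27 replication-dependent genes and 7 of 12 variants called lower and 0 called higher, where 9.41% of all genes were called lower and 8.01% higher. This comparison uses the same Con arrays as DOX minus Con, so its values are given beside those and are not a second test. The median over the replication-dependent genes was -0.69, with all 27 differences negative, and for 19 of 27 the arrays did not overlap, which held for 18.5% of all genes. The largest differences were those of Hist1h2af (-2.87), Hist1h2aj (-2.42), Hist1h2ba (-2.29), Hist2h2bb (-1.89) and Hist1h2aa (-1.55). Hist1h3c passed here, at -0.93 (adjusted p = 0.0098 by limma), and Hist1h3f, at -0.32 (adjusted p = 0.13), did not. The linker histone Hist1h1a lay at 4.78, 5.0 and 5.27 in Con and at 4.34, 3.98 and 4.64 in DOX_IFNg, and fell by 0.69 (adjusted p = 0.043). The adjusted p was from 0.053 to 0.13 when Con replicate 2 or 3, DOX replicate 2 or 3, or DOX_IFNg replicate 1 or 2 was left out. Hist1h2bb, at -0.77, was not called without Con replicate 2 or either DOX_IFNg replicate 2 or 3 (adjusted p from 0.051 to 0.062). Hist1h4a, at -0.55, was not called without Con replicate 2 or 3 or DOX_IFNg replicate 2 or 3 (adjusted p from 0.054 to 0.063).

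The variants lower in DOX_IFNg than in Con were H2afv (-1.51), H3f3c (-0.93), H2afx (-0.93), H2afz (-0.86), H2afy2 (-0.40), H2afj (-0.35) and H2afy (-0.27), with a median of -0.31 over the 12. The adjusted p of H2afx was 0.0022 by limma here. The macroH2A genes passed only narrowly: H2afy2 had an adjusted p of 0.020, and from 0.053 to 0.076 without Con replicate 1 or 2 or DOX_IFNg replicate 1 or 2. H2afy had an adjusted p of 0.013, and 0.0501 without Con replicate 2 or 0.053 without DOX_IFNg replicate 2. H2afj, at an adjusted p of 0.028, was not called when any 1 Con array or DOX_IFNg replicate 1 or 2 was left out (adjusted p from 0.053 to 0.099). Without Con replicate 2, or without DOX_IFNg replicate 2, 4 variants were called. H2afb1 was the only variant with a positive difference, 0.10 (adjusted p = 0.75).

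**Figure D4:**
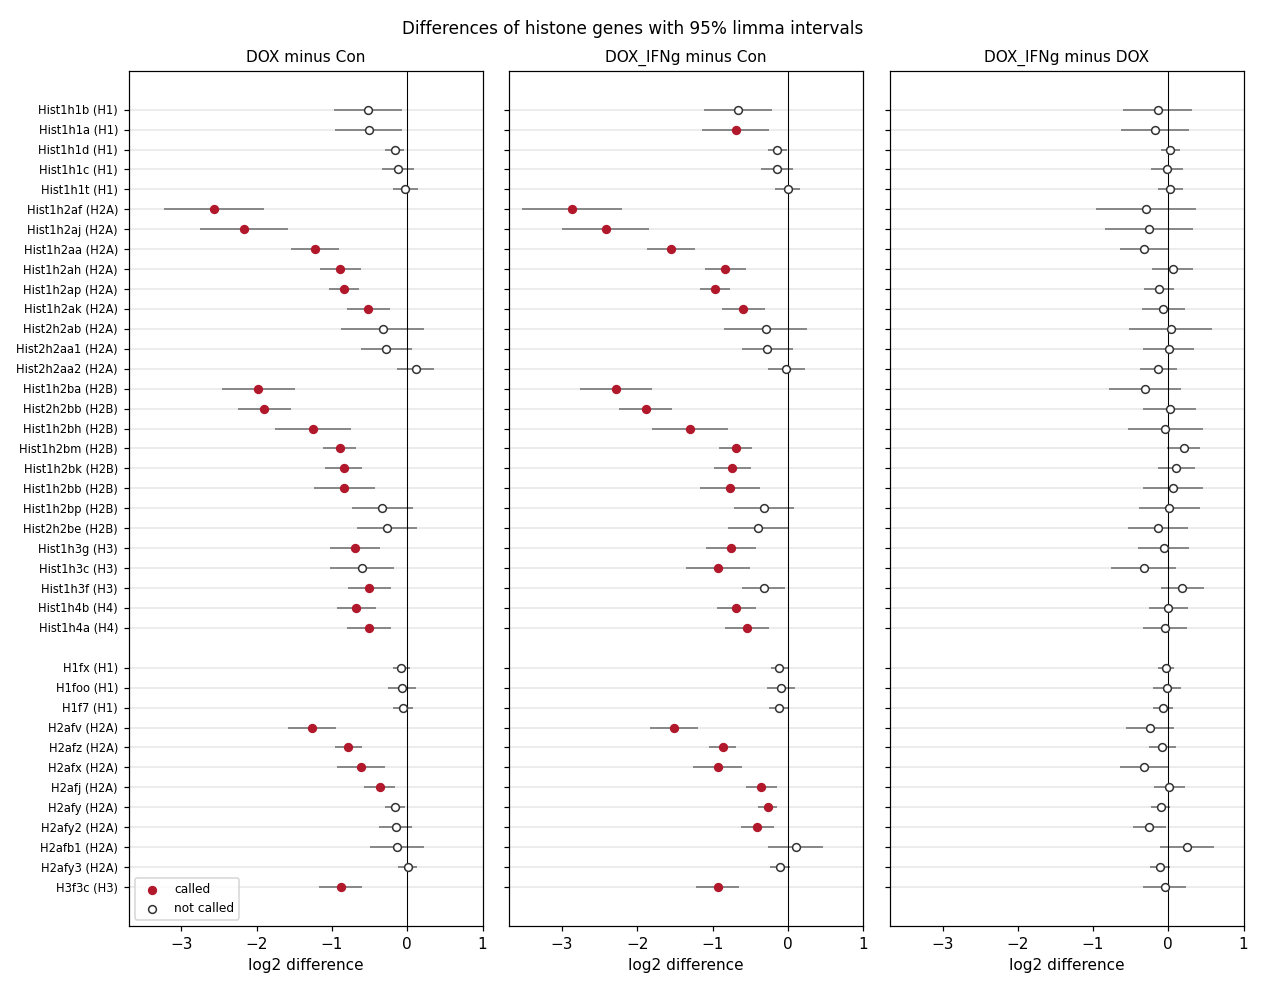
Log2 differences of the 39 genes in the 3 comparisons, with 95% limma intervals; filled points passed the test at an adjusted p under 0.05. Filled points lie left of 0 in both comparisons with Con, where 16 and 17 replication-dependent genes were called, and all 39 points are open in DOX_IFNg minus DOX.

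Some probe groups list several gene symbols with at least 1 histone among them and cannot be named by gene. There were 41; 39 listed histones of a single class and 2 mixed classes, H1 with H2B and H2A with H3. In a fit over all 32493 annotated probe groups, where 7.46% were called lower and 7.7% higher in DOX minus Con, 27 of 41 such groups fell, both mixed ones included, and 0 rose, with a median of -0.58. H2B groups were lower in 8 of 9 cases (median -1.47), H3 in 6 of 8 (median -0.66), H4 in 6 of 10 (median -0.48) and H2A in 5 of 12 (median -0.41). The largest difference was that of an H2B group listing 4 symbols, which lay at 17.92, 17.85 and 17.98 in Con, at 14.55, 14.67 and 13.58 in DOX and at 13.25, 14.20 and 14.44 in DOX_IFNg. It fell by 3.65 in DOX (SE 0.35, adjusted p = 0.00022 by limma), and DOX replicate 3 and DOX_IFNg replicate 1 were lower than their companions. In DOX_IFNg minus Con 30 of 41 were lower, against 9.23% of all groups, and in DOX_IFNg minus DOX 0 were called. The 5 pseudogene symbols outside the set were called lower in DOX as well, from -0.35 for H2af-ps to -2.98 for Hist3h2bb-ps.

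Genes that serve histone supply were mixed. The list of histone gene transcription and RNA 3' end processing had 19 of 20 genes measured. Of these, 5 fell and 3 rose in DOX, with a median of -0.03. Of all genes tested, 7.53% were lower and 8.06% higher. Cyclin E and its kinase, which switch on histone transcription through Npat at S phase entry, were the largest falls: Ccne1 fell by 2.20 (SE 0.08, adjusted p = 5.6e-06 by limma), Cdk2 by 1.45 (SE 0.09) and Ccne2 by 0.96 (SE 0.21). Npat itself, the histone-specific coactivator, lay at 6.87, 6.60 and 6.03 in Con, at 6.29, 6.36 and 6.39 in DOX and at 6.92, 6.78 and 6.15 in DOX_IFNg, with overlapping groups and a difference of -0.15 (95% interval -0.70 to 0.40). Slbp, which binds the stem-loop of histone RNA, lay at 5.0, 5.21 and 5.27 in Con, at 4.81, 4.81 and 4.79 in DOX and at 4.77, 4.72 and 4.83 in DOX_IFNg. It fell by 0.36 in DOX (SE 0.07, adjusted p = 0.011 by limma), with no DOX array above a Con array. Lsm11, part of the U7 particle that cuts histone RNA, fell by 0.25 (adjusted p = 0.026), and its partner Lsm10 differed by 0.08 without passing. The genes that rose were Fip1l1, a subunit of the cleavage and polyadenylation machinery (0.95, SE 0.09), Hinfp, an activator of H4 genes (0.54, SE 0.11), and the zinc-finger factor Yy1 (0.40, SE 0.10). Without DOX replicate 1 only 1 of these 3 rises was called, and without Con replicate 2 or DOX replicate 1 only 3 of the 5 falls. In DOX_IFNg minus Con 4 fell and 2 rose, beside 9.41% and 8.01% of all genes.

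The list of histone chaperones, importers and exchange factors, which carry histones to DNA or swap them there, had 21 of its 26 listed symbols measured. Of these, 13 fell and 2 rose in DOX, with a median of -0.41. All 21 were above the dim limit, where 1891 of 12028 genes were called lower and 2093 higher. Nasp, the H3-H4 storage chaperone, fell by 1.16 (SE 0.10), Asf1b, the form of Asf1 linked to dividing cells, by 1.15 (SE 0.10), the nucleosome assembly protein genes Nap1l4 by 1.01 (SE 0.09) and Nap1l1 by 0.94 (SE 0.16), and Hat1, which acetylates new H4, by 0.88 (SE 0.20, adjusted p = 0.019 by limma). Asf1a, the other form, rose by 0.50 (SE 0.09, adjusted p = 0.0072 by limma), from 7.72, 7.60 and 7.42 in Con to 8.08, 8.08 and 8.10 in DOX. Ubn1 of the replication-independent H3.3 loading complex rose by 0.34 (adjusted p = 0.026). Leaving out array 1 or 2 of Con or of DOX left 1 of the 2 rises. In DOX_IFNg minus Con 13 fell and 2 rose, the latter 1 without DOX_IFNg replicate 2. Of the 12028 genes above the dim limit, 2365 were lower and 2063 higher in that comparison. Of histone genes outside the naming rule, the centromere H3 gene Cenpa differed by -0.11 and the spermatid gene Hils1 by 0.02, both dim and not called.

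S phase genes fell as well. Of 13 measured genes of DNA replication, 12 fell and 1 rose in DOX, with a median of -1.21, beside -0.60 for the replication-dependent histones. All 13 were above the dim limit, where 1891 of 12028 genes were called lower and 2093 higher. Mcm6, Mcm5, Mcm2 and Mcm4, subunits of the replicative helicase, fell by 2.63 (SE 0.10), 2.27 (SE 0.09), 2.24 (SE 0.11) and 2.21 (SE 0.19), and Rrm1, the large subunit of ribonucleotide reductase, by 2.62 (SE 0.10). Tyms, thymidylate synthase, rose by 0.61 (SE 0.12, adjusted p = 0.011 by limma); it was singled out after its values were seen. In DOX_IFNg minus Con the counts were again 12 and 1, with a median of -1.16, beside 2365 and 2063 of the 12028 genes above the limit. Cell cycle phase was not measured, and the part of these genes' fall in the histone differences was not tested.

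**Figure D5:**
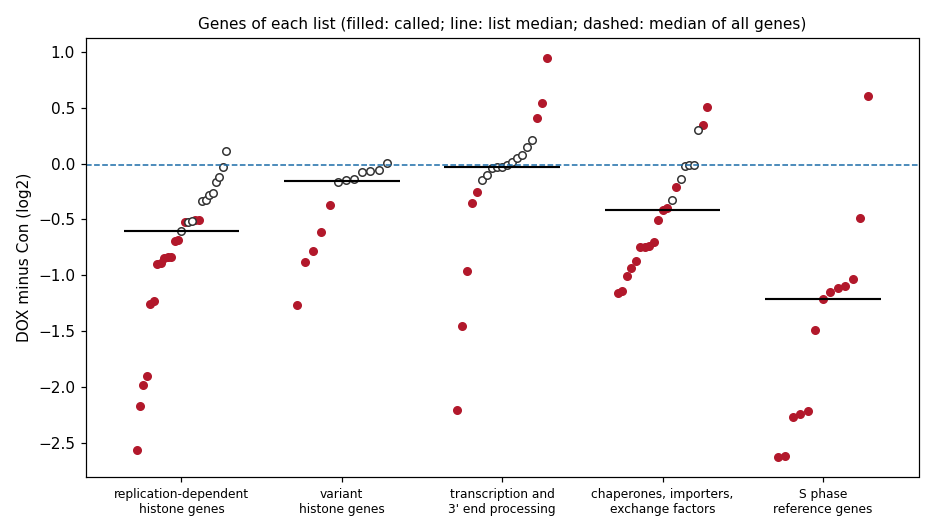
Difference between DOX and Con (log2) of each gene, for both histone sets and 3 further lists; filled points passed the test, the black line is the list's median and the dashed line the median of all genes (-0.01). Medians were -0.60, -0.16, -0.03, -0.41 and -1.21 from left to right, and the middle list spreads from -2.20 to 0.95.

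The label of a heart muscle line was not borne out by all of its markers. Of 8 cardiomyocyte genes, Nkx2-5, Tnnt2 and Actn2 were above the dim limit and Myh6, Nppa, Myl7, Gata4 and Ryr2 were not. Of other cell types, 2 of 4 skeletal myoblast genes (Myog and Myod1), 3 of 3 collagen genes of fibroblasts, 1 of 4 immune genes and 0 of 4 endothelial genes were above it. The mean log2 level of the collagens was 13.88 to 14.12 on the Con arrays, 12.65 to 12.75 on the DOX arrays and 12.56 to 12.67 on the DOX_IFNg arrays. For the myoblast genes it was 5.49 to 5.56, 4.73 to 4.90 and 4.67 to 4.77, and for the cardiomyocyte genes 4.79 to 4.84, 4.66 to 4.70 and 4.65 to 4.70. These means hide opposite members: in DOX, Myog fell by 3.42 and Myod1 rose by 0.76 (adjusted p = 0.018 by limma), and of the cardiomyocyte genes Tnnt2 fell by 1.24 while 6 of 8 differences were positive and not called. The part of these marker changes in the histone differences was not tested. Array medians lay between 4.08 and 4.17. The highest value, 19.93, was shared by 6 arrays (Con replicate 1, all DOX arrays, DOX_IFNg replicates 1 and 2) and not by the other 3, so this grouping was uneven over the treatments. On Con replicate 3 the highest value, 19.82, equalled that of Hist1h2aj, so the grouping was read in part from a histone gene. With this grouping as a block, 12 replication-dependent genes and 3 variants were lower in DOX minus Con, with medians of -0.49 and -0.18. Among the arrays that share 19.93, DOX minus Con replicate 1 gave medians of -0.43 and -0.30, negative for 24 of 27 and 11 of 12. DOX_IFNg minus Con gave medians of -0.57 and -0.36 among those arrays and -0.65 and -0.18 among the other 3. After quantile normalization, 16 and 17 replication-dependent genes were lower in DOX minus Con and DOX_IFNg minus Con, the same counts as without it. Over all genes that setting moved the calls in DOX minus Con from 2423 higher and 2264 lower to 3069 and 1902, and in DOX_IFNg minus Con from 2407 and 2827 to 3075 and 2273.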

How the data were processed

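Biotin-labelled cDNA of total RNA from HL-1 cells, 9 samples with 3 per group, was hybridised to Affymetrix arrays, per the labels' protocols. The authors deposited 1 table of values for 65527 transcript clusters (probes grouped for a transcript), made with RMA per the submitters' processing notes; neither its version nor the priming of the cDNA is given in the sources used here. Deposited values, from 2.29 to 19.93, were taken as log2, a scale read from the values and not written in the table. RMA compresses dim probes, so their changes can be understated. They were used without further normalization.

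GEO's platform annotation gave 1 symbol for 30376 clusters, several for 2117 and listed 33034 not at all. These 30376 clusters stood for 30050 genes. For 245 genes with several, the brightest on average was used, and 40 clusters gave the 39 histone genes. Promoters were matched by gene ID to RefSeq (GRCm38.p6), and motifs were searched on both strands. The array files name no build.

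Group means over all 9 arrays were fitted with limma 3.58.1 (lmFit, eBayes) in R 4.3.3, with 6 residual and 2.41 prior degrees of freedom. Tests were two-sided and adjusted by Benjamini-Hochberg over all genes of a comparison, with no minimum fold or dim filter. Precision is limited by the number of arrays. The procedure was tested on simulated data. Named are, per replication-dependent class, up to 4 called genes with the largest difference in DOX minus Con and the 2 with the highest mean; variants above the dim limit or called; the 5 largest differences in DOX_IFNg minus DOX; and up to 5 called genes per list. Other members are named to account for all of them. Histone genes and lists were chosen with earlier results of these data known. Alternatives were quantile normalization, a dim filter, every cluster as its own row, only the 2 groups compared, a replicate block, the array grouping as a block, a trended robust variance, and leaving out each array; all annotated clusters as rows was added after the data were seen.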

Additional observations from a re-analysis of the deposited data

How the results depend on the processing

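Each result was recomputed under the alternatives, and 0 results reversed direction in a called value. With dim genes filtered out, which leaves 13 of the 27 replication-dependent genes in the test, 10 were called lower in DOX minus Con and 10 in DOX_IFNg minus Con, and the median in DOX minus Con was -0.89 for these and -0.49 for the variants left. Deviations of same-numbered arrays correlated at -0.02, -0.06 and -0.11 in DOX minus Con, where differently numbered arrays gave -0.09 to 0.11. In DOX_IFNg minus DOX the values were -0.09, 0.11 and -0.16, beside -0.23 to 0.28. In DOX_IFNg minus Con they were 0.36, -0.08 and 0.33, beside -0.40 to 0.18. With 3 arrays a group, pairing by replicate number can be neither shown nor excluded. The replicate block left 13 replication-dependent genes and 3 variants lower in DOX minus Con, against 16 and 5 without it, and 18 and 6 in DOX_IFNg minus Con, against 17 and 7. With the array grouping as a block, 3 variants were lower in DOX minus Con. Leaving out 1 array at a time gave 13 to 17 replication-dependent genes and 3 to 5 variants lower in DOX minus Con (3 without Con replicate 1 or 2 or DOX replicate 3), and 14 to 18 and 4 to 7 in DOX_IFNg minus Con. Over all genes, DOX_IFNg minus DOX had 0 to 1 lower calls, the 1 arising without Con replicate 3. In DOX minus Con, 11 of the 16 replication-dependent and 3 of the 5 variant calls held in every alternative that tested the gene. In DOX_IFNg minus Con, 14 of 17 and 4 of 7 did. The cause of these changes was not tested, apart from fewer genes or arrays tested. The number of arrays and dim probes limit what could be seen.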
